A study of Mus musculus with 12 samples.

Results

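Lungs of mice given recombinant human PBEF (rhPBEF) intratracheally and also ventilated were compared with lungs of mice given rhPBEF without ventilation. The members were the 3 arrays titled rhPBEF & VALI and the 3 titled rhPBEF, 6 of the 12 arrays of the study, and they were taken from the sample titles. All were hybridised with lung RNA of mice aged 8 to 12 weeks. In the rhPBEF group each mouse was given 20 µg of the protein, dissolved in water at 1.5 µl per gram of its weight. The combined group received the same dose and 4 hours of mechanical ventilation with breaths of 30 ml per kg, large enough to injure the lung. Of the other 6 arrays, 3 were from mice given phosphate-buffered saline. The remaining 3 were from mice ventilated for 4 hours at 30 ml per kg without rhPBEF. These arrays gave the ventilation step in lungs that had no rhPBEF. Whether the ventilated mice of that step were given saline is not stated, so it may also differ by instillation. The time between instillation and tissue collection is not given, nor is a group ventilated with small breaths, so the large breath, ventilation itself and the handling around it cannot be told apart. The labels do not say that replicates were different mice, and p-values therefore measure the spread between these arrays.

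PBEF is an extracellular inflammatory signal and the same protein as the NAD-making enzyme that the mouse gene Nampt encodes. Overstretch of the lung acts on cells that line its airspaces and its vessels. Endothelial cells sense the drag of flowing blood through transcription factors such as KLF2 and KLF4, and they sense circulating bone morphogenetic proteins (BMP9 and BMP10) through the receptor ALK1 and its co-receptor endoglin, which act through SMAD proteins on genes such as Id1, Smad6 and Smad7. Stretched epithelium and fibroblasts are known to switch on immediate early genes, prostaglandin synthesis and ligands of the EGF receptor.

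Values are the authors' normalised log2 levels, so a difference of 1 is a doubling, and a gene is the probe set with the highest mean over the 12 arrays. Over all non-control probe sets the rhPBEF arrays correlated with each other at 0.991 to 0.994, the combined arrays at 0.988 to 0.996, and arrays of one group with arrays of the other at 0.989 to 0.995. The tissue label was borne out by the alveolar type II markers, whose mean level lay between 12.83 and 13.02 in the combined arrays and between 12.94 and 13.02 in the rhPBEF arrays. Some arrays stood apart from the rest of their groups. In rhPBEF replicate 2 the mean of 13 skeletal muscle markers lay 2.55 above the control mean, against -0.06 and -0.23 in the other rhPBEF arrays and -0.05 to 0.11 in the combined arrays. In replicate 3 of the combined group inflammatory genes were the lowest of that group, with the mean of 16 NF-kB targets and regulators at 0.96 above control against 1.98 and 1.62 in replicates 1 and 2. That mean was also lowest in replicate 3 of the rhPBEF group, at 1.22 against 1.32 and 1.44. Combined replicate 1 was the highest of its group in neutrophil markers, at 3.17 above control against 2.01 and 1.52. Of 111 genes named or followed here, the difference moved by over 1.5 times or turned for 35 without combined replicate 1. The count was 13 and 29 without combined replicates 2 and 3, and 20, 17 and 20 without rhPBEF replicates 1, 2 and 3. Many of these values are given beside the result or in the closing section.

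Adding ventilation to rhPBEF gave 1 gene that passed the test, lower in the combined group, and others, among them Eng, Ephb4, Trim15 and Krt18, whose arrays did not overlap but which missed the adjusted threshold. Of 18193 genes, 1 passed an adjusted p of 0.05 by limma with Benjamini-Hochberg adjustment (0.00550%), and the second-lowest adjusted p was 0.212. An unadjusted p below 0.05 was reached by 778 genes (4.28%), 513 of them higher (2.82%) and 265 lower (1.46%) in the combined group. Over all genes, 10044 (55.2%) were higher by any amount and 8149 (44.8%) lower. The 3 arrays of one group did not overlap with the 3 of the other for 1779 genes (9.78%), 1101 higher (6.05%) and 678 lower (3.73%). For a single gene, no overlap of 3 against 3 arrays has p = 0.1 by an exact two-sided test. The 15 genes named in each direction were picked from those without overlap, so their lack of overlap is no further support. The median standard error of a difference was 0.11. Only 46 genes differed at least 2-fold, 18 higher and 28 lower, and of those 28 the level in rhPBEF replicate 2 was over 1 log2 unit above both other rhPBEF arrays for 25. Without that array 3 of the 28 still differed at least 2-fold, and 14 of the 18 higher genes did. Below, every gene other than Acaa1b missed the adjusted threshold in this comparison, and its values are given as measured.

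The gene that passed was Acaa1b, which encodes a peroxisomal thiolase, the enzyme of the last step of fatty acid beta-oxidation in peroxisomes. It stood at 9.20, 9.05 and 9.34 in the rhPBEF arrays and at 7.63, 7.59 and 7.96 in the combined arrays. Every combined array lay more than a log2 unit below every rhPBEF array. Acaa1b fell by 1.47 ± 0.16 (SE), a 2.77-fold difference (limma adjusted p = 0.0313). In lungs without rhPBEF it stood at 8.69, 8.63 and 8.57 in the control and 8.20, 7.55 and 7.63 after ventilation, a difference of -0.84. The ventilated groups with and without rhPBEF thus overlapped, and the rhPBEF arrays were the highest of the study. The difference between the ventilation steps with and without rhPBEF was -0.63 (95% interval -1.13 to -0.13), with an adjusted p of 0.998 by limma. The call depended on the spread that all groups share: its adjusted p was 0.151 in a fit of the 6 arrays alone and 0.273, 0.116 and 0.300 without rhPBEF replicates 1, 2 and 3. Without combined replicates 1, 2 and 3 it was 0.282, 0.285 and 0.0393, and with a control array left out it was 0.0982 to 0.106. The near copy Acaa1a, a thiolase of the same kind, was level at 9.39, 9.52 and 9.49 after rhPBEF and 9.47, 9.50 and 9.39 in the combined arrays. The 250 bases before the start of Acaa1b are shown because it is the gene that passed (RefSeq, GRCm38.p6, chr9:119157094-119157343, minus strand, read towards the gene). They held no match to 7 motifs searched on both strands, which were AP-1 (TGANTCA), CRE (TGACGTCA), NF-kB (GGG, any 2 bases, then TTTCC), the heat shock element (GAANNTTC), a BMP-responsive SMAD element (GGCGCC), MEF2 (CTA, any 4 bases, then TAG) and a PPAR direct repeat (2 copies of AGGTCA with 1 base between them). The last of these occurs in 0.0335% of 32851 such windows. The last 3 motifs were added after values were seen.
Acaa1b: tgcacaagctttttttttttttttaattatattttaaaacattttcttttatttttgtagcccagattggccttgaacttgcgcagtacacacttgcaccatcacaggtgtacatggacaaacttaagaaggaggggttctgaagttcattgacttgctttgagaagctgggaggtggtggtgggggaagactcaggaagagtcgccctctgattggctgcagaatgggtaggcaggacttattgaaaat

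**Figure D1:**
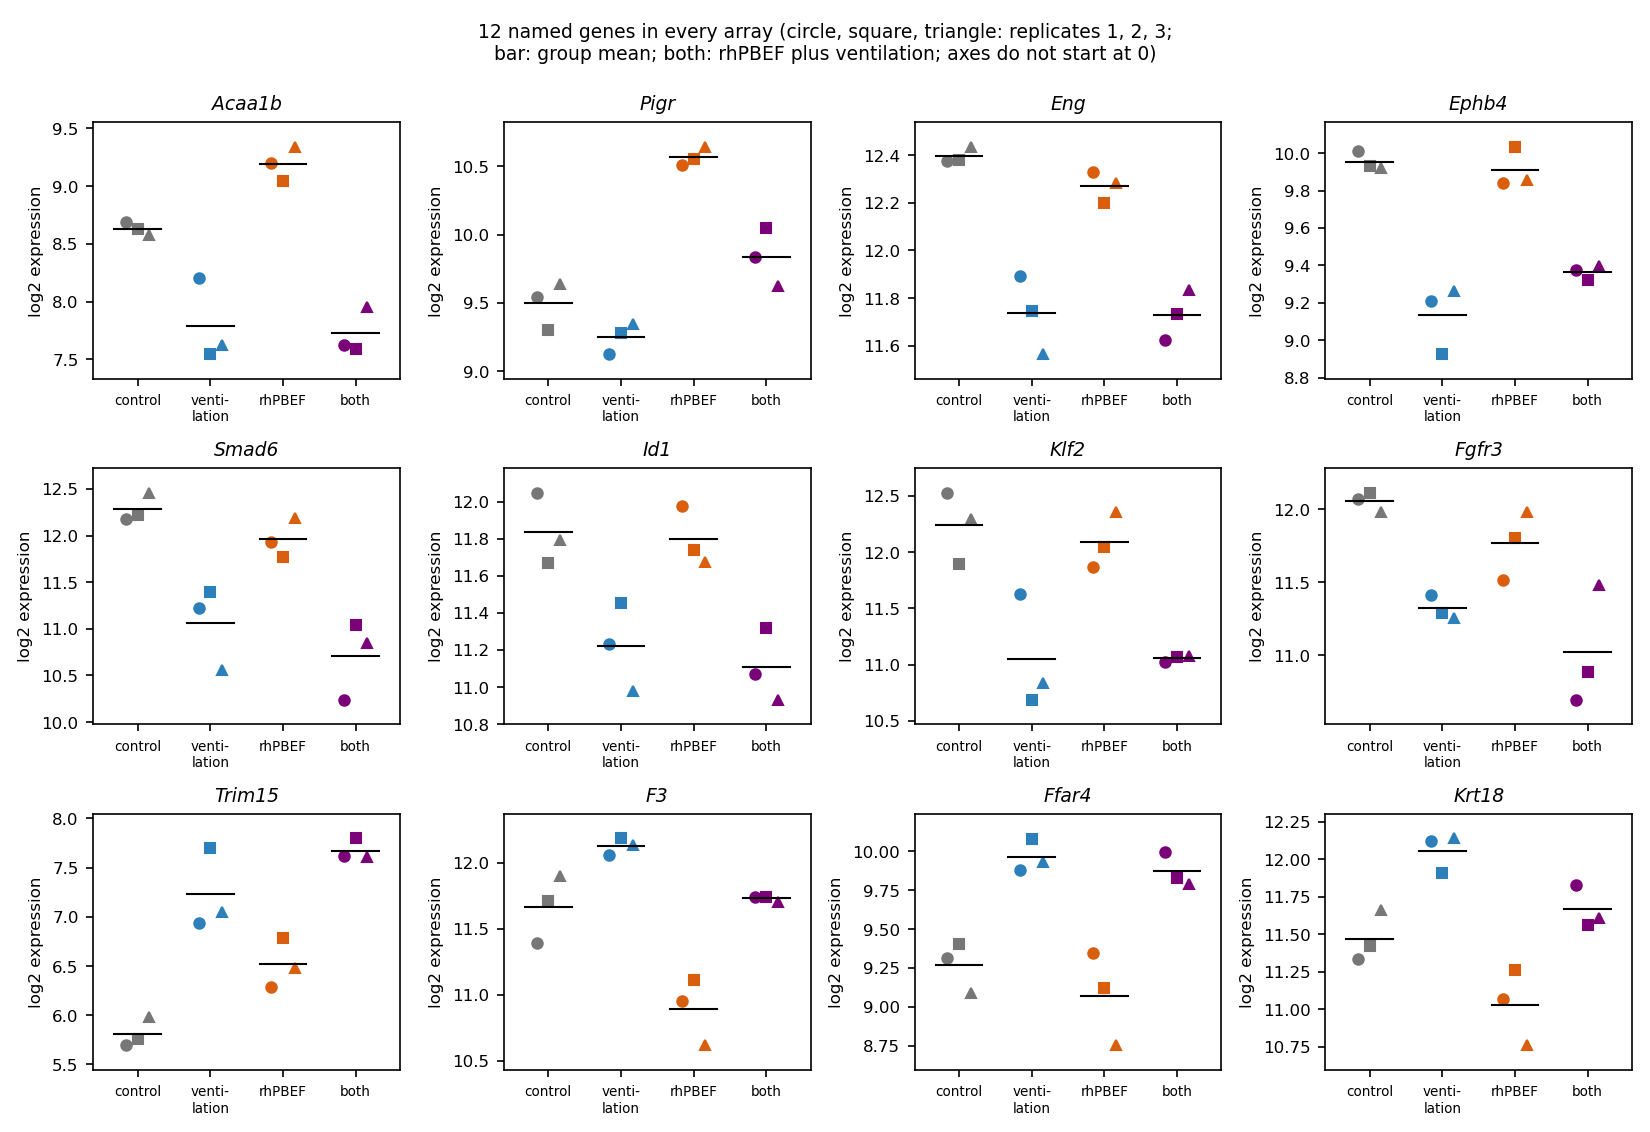
Log2 expression (y axes, which do not start at 0) of 12 genes in each of the 12 arrays by group (x axes). Circles, squares and triangles are replicates 1, 2 and 3, bars are group means, and "both" is rhPBEF plus ventilation. In each panel the 3 combined arrays lie wholly on one side of the 3 rhPBEF arrays, as the rule for naming genes required. Acaa1b drops from between 9.05 and 9.34 to between 7.59 and 7.96.

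Among the 15 lower genes with the smallest p and no overlap between groups were several of blood vessel endothelium: Eng, Ephb4, Smad6, Id1 and Klf2. Eng, the gene of the BMP co-receptor endoglin, stood at 12.33, 12.20 and 12.28 in the rhPBEF arrays and at 11.62, 11.73 and 11.84 in the combined arrays. The 2 groups did not overlap, and the difference was -0.54 ± 0.09 (SE), with -0.84 in its other probe set. Ephb4, a receptor of ephrin-B2 that marks veins, went from 9.84, 10.03 and 9.86 to 9.38, 9.32 and 9.39 (-0.55 ± 0.09). All 3 combined arrays of Ephb4 lay within 0.1 of each other and below the rhPBEF arrays. Both genes had a limma adjusted p near the second-lowest value (0.212 and 0.219). Fewer endothelial cells and less RNA of these genes per cell cannot be told apart in whole-lung RNA.

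Smad6, an inhibitor of BMP signalling that the pathway itself switches on, had the largest of these differences. Its level was 11.93, 11.77 and 12.18 after rhPBEF and 10.24, 11.04 and 10.85 with ventilation added, a 2.38-fold difference of -1.25 ± 0.23 (SE). The spread among the combined arrays was wide, with replicate 1 lowest. All 3 lay below the rhPBEF arrays, which the rule for naming genes required. Id1, a target gene of the same pathway, went from 11.97, 11.74 and 11.68 to 11.07, 11.32 and 10.93 (-0.69 ± 0.15). Smad7, a second inhibitory SMAD, differed by -0.56 ± 0.17 and Acvrl1, which encodes ALK1, by -0.43 ± 0.11, and neither overlapped between groups. Of 20 genes of BMP, ALK1 and Id signalling, 14 were lower and 6 higher, none passed, and 5 had an unadjusted p below 0.05, all lower, against 1.46% of all genes. The list median was -0.16 and ran from -0.22 to -0.09 when each of the 6 arrays was left out in turn, lowest without combined replicate 3 and highest without combined replicate 1, beside a median of 0.01 over all genes.

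Klf2, the flow-induced transcription factor gene of endothelium, stood at 11.87, 12.05 and 12.35 after rhPBEF and at 11.02, 11.07 and 11.08 in the combined arrays. The combined arrays lay within 0.1 of each other and below the lowest rhPBEF array, with a 2.05-fold difference of -1.03 ± 0.23 (SE). Nos3, which encodes endothelial nitric oxide synthase, went from 9.05, 9.06 and 9.0 to 8.50, 8.31 and 8.71 (-0.53 ± 0.15). Sox18, a SoxF transcription factor of vessels, stood at 11.73, 10.99 and 11.64 against 10.69, 10.91 and 9.79 (-0.99 ± 0.29, and -0.66 without combined replicate 3), and the water channel gene Aqp1 differed by -0.26 ± 0.07. Klf4 overlapped between groups, at 11.55, 12.14 and 12.22 against 11.18, 11.11 and 11.97. Of 14 flow-responsive and SoxF genes, 13 were lower, none passed and 5 had an unadjusted p below 0.05, all lower, against 1.46% of all genes. The arrays of 5 members did not overlap, against 3.73% of all genes in that direction. The list median was -0.27, between -0.38 and -0.23 with any of the 6 arrays left out.

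The 250 bases before the start of Klf2 are printed because KLF2 is known to be induced by flow through MEF2 factors (RefSeq, GRCm38.p6, chr8:72318812-72319061, plus strand). They held 1 match to the MEF2 motif, in capitals, beginning 118 bases before the start, and no match to the other 6 motifs. This motif occurs in 3.20% of the 32851 windows of the same length. The match is a description of letters and not of a bound site. The windows of Eng and Smad6 held no match to any of the 7 motifs.
Klf2: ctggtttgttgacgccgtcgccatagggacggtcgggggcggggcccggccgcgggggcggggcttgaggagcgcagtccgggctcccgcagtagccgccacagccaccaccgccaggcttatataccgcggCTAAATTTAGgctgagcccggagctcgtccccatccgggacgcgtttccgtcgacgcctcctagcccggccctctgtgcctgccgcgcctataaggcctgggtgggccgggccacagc

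Endothelial markers lay on both sides of 0. Of 22 endothelial markers, 13 were lower and 9 higher with a median of -0.06, which was -0.10 without rhPBEF replicate 2, -0.15 without combined replicate 3 and -0.02 without combined replicate 1. An unadjusted p below 0.05 was reached by 5, all lower (1.46% of all genes were), which were Sox18, Ephb4, Eng, Egfl7 and Ramp2. Egfl7, a secreted vessel protein gene, differed by -0.44 ± 0.11, although another of its probe sets gave -0.02, and Ramp2, an adrenomedullin receptor component, by -0.42 ± 0.17 with overlapping arrays. Tmem100, a target of BMP9, stood at 12.74, 12.51 and 12.70 against 11.54, 12.23 and 12.41, and its difference of -0.59 ± 0.53 was little more than its error. That error includes ventilation replicate 2, at 9.64 against 12.24 and 12.07 in the other ventilated arrays. Pecam1, the pan-endothelial adhesion molecule, overlapped between groups, at 12.18, 12.10 and 12.00 against 11.97, 12.04 and 12.04. The mean level of the whole marker list was 11.47 to 11.56 in the rhPBEF arrays and 11.24 to 11.47 in the combined arrays.

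Ventilation without rhPBEF gave differences of the same sign for Eng, Ephb4, Smad6, Id1, Klf2 and Sox18. Ventilation minus control was -0.66 for Eng, -0.82 for Ephb4, -1.23 for Smad6, -0.62 for Id1, -1.19 for Klf2 and -1.28 for Sox18. Ephb4 was the 1 gene of 18193 that passed in ventilation against control (limma adjusted p = 0.0459). The arrays of this step are not shared with the comparison. All 14 flow-responsive and SoxF genes had the same sign in both steps, as had 19 of the 20 BMP genes and 15 of the 22 endothelial markers, against 12007 of 18193 genes in all (66.0%). The lists were chosen with earlier results of these data known, so these counts are a description and no independent support. They also share members, such as Sox18 (flow-responsive and endothelial) and Tmem100 (BMP and endothelial), so the counts repeat some genes. For Smad6 the 2 steps differed by -0.02 (95% interval -0.75 to 0.70) and for Klf2 by 0.15 (-0.56 to 0.87), intervals that leave room for a sizeable difference either way.

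Over all 18193 genes the differences of the 2 steps had a Pearson correlation of 0.49 and a Spearman correlation of 0.49, a description across genes, which are not independent. Of the 513 genes higher at an unadjusted p below 0.05 after rhPBEF, 436 (85.0%) were also higher in ventilation alone, where 48.9% of all genes were. Of the 265 lower genes 234 (88.3%) were also lower, against 51.1% of all genes. Genes at an unadjusted p below 0.05 in both steps and in one direction numbered 288, which is 37.0% of the 778 genes of this comparison and 11.7% of the 2456 of ventilation alone (13.5% of all genes, 5.56% higher and 7.94% lower). Tested directly, the step differed with rhPBEF for 0 genes by limma (0%, lowest adjusted p = 0.998), and 449 genes (2.47%) had an unadjusted p below 0.05, 1.46% with a higher and 1.01% with a lower value after rhPBEF.

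**Figure D2:**
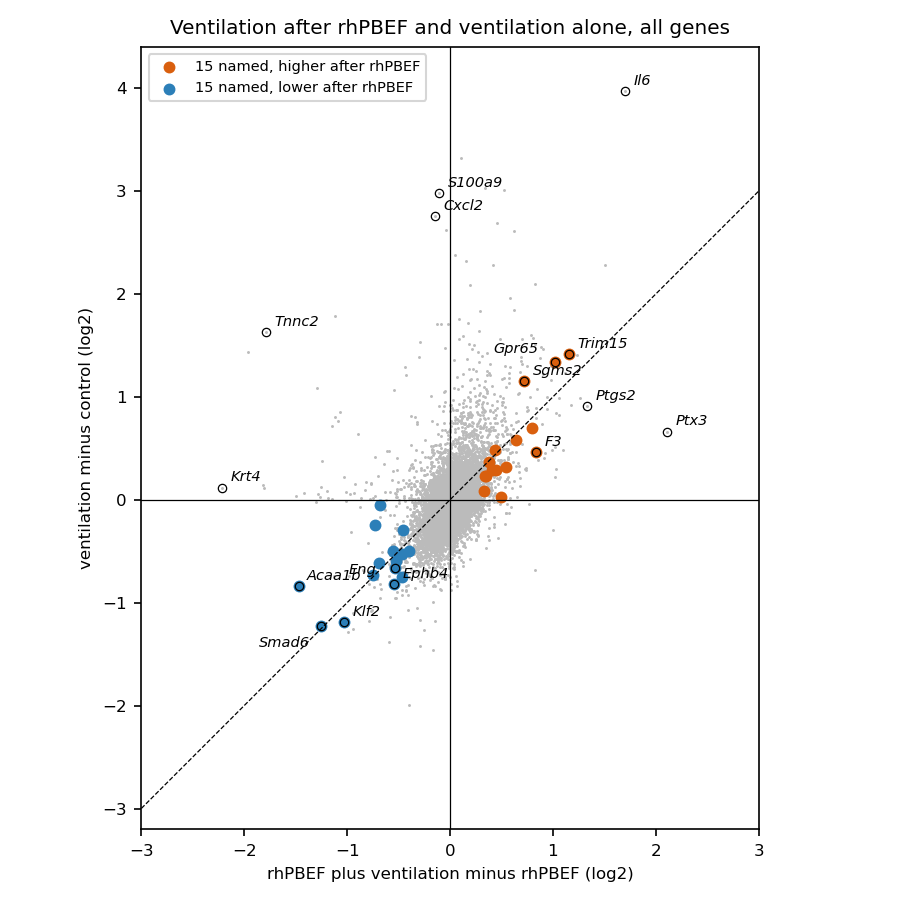
Each grey point is 1 of 18193 genes, with the log2 difference of the combined group from rhPBEF on the x axis and of ventilation from control on the y axis. Orange and blue points are the 15 higher and 15 lower named genes, open circles mark named examples, and the dashed line marks equal differences. Smad6 and Klf2 lie near the line, while Cxcl2 and S100a9 lie high above it and Krt4 and Tnnc2 lie far to the left.

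The 5 genes with the smallest p for that difference were Krtap17-1, Fgg, Kcnmb1, Traf1 and Lrrfip1. Fgg, the fibrinogen gamma chain gene, was 0.95 above control after ventilation alone and -0.05 ± 0.16 from rhPBEF when ventilation was added. Its levels were 8.20, 8.67 and 8.11 after rhPBEF and 8.30, 8.29 and 8.23 in the combined arrays, all above the control arrays at 6.30, 6.10 and 6.49. Lrrfip1 gave 0.67 and 0.12 in the same order, Traf1, a TNF receptor adaptor gene, -0.88 and 0.01, Kcnmb1, a potassium channel subunit gene of smooth muscle, -0.42 and 0.14, and the keratin-associated protein gene Krtap17-1 1.21 and -0.43 (-0.65 without combined replicate 3). The other probe set of Kcnmb1 gave -0.014 when ventilation was added to rhPBEF. None of the 5 passed.

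Trim15, a member of the TRIM family of ubiquitin ligases, had the smallest p of the 15 higher named genes. It stood at 6.29, 6.79 and 6.48 after rhPBEF and 7.62, 7.79 and 7.60 in the combined arrays. The groups did not overlap and the difference was 1.16 ± 0.19 (SE), 2.23-fold, with a limma adjusted p of 0.212. In lungs without rhPBEF it stood at 5.69, 5.76 and 5.98 in the control arrays and 6.94, 7.70 and 7.05 after ventilation, a difference of 1.42. Ffar4, a receptor of long-chain fatty acids, went from 9.35, 9.12 and 8.75 to 9.99, 9.83 and 9.79 (0.80 ± 0.14). Krt18, a keratin of simple epithelium, went from 11.07, 11.26 and 10.76 to 11.83, 11.56 and 11.61 (0.64 ± 0.14), with 0.59 in ventilation alone. Neither gene's arrays overlapped.

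The partner keratin gene Krt8 differed by 0.55 ± 0.16 and Krt19 by 0.37 ± 0.13. Cldn4, a claudin of tight junctions that is raised in injured alveolar epithelium, went from 7.96, 8.79 and 8.31 to 10.25, 9.33 and 9.28 (1.26 ± 0.39). Sfn, the epithelial 14-3-3 sigma gene, overlapped between groups with a difference of 0.89 ± 0.34. These genes belong to a list of simple and wound-associated epithelial genes that was drawn up after values were seen: 10 of its 11 members were higher, 6 were higher at an unadjusted p below 0.05, against 2.82% of all genes, none passed, and the median was 0.37 (0.30 to 0.47 with any of the 6 arrays left out). Krt17 also ranked among the smallest p (0.55 ± 0.09) at a level below 6.42, the 40th percentile of the non-control probe sets, and its other probe set gave 0.05. Alveolar type II markers lay close to the median of all genes, with 11 of 12 lower, none of them at an unadjusted p below 0.05, and a median of -0.06. That median was -0.01 without combined replicate 1, -0.03 without rhPBEF replicate 1 and -0.09 without combined replicate 3. Alveolar type I markers had a median of 0.01, between -0.05 and 0.05 with any of the 6 arrays left out. Ciliated cell markers had a median of 0.01 (-0.04 to 0.08) and club and secretory cell markers one of -0.10 (-0.18 to -0.03), with 0 members of either at an unadjusted p below 0.05 by limma.

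F3, Pigr and Btc had differed between rhPBEF and control by limma, and their means lay nearer to control in the combined group. F3 encodes tissue factor, the trigger of clotting, and it fell with rhPBEF alone by limma (-0.77 against control, adjusted p = 0.0277). Its levels were 11.39, 11.71 and 11.90 in control, 10.95, 11.11 and 10.61 after rhPBEF and 11.74, 11.74 and 11.70 in the combined arrays. The combined arrays lay within the control range and above every rhPBEF array, a difference of 0.84 ± 0.14 (SE). Pigr, the receptor that carries IgA across epithelium, rose with rhPBEF alone by 1.07 (limma adjusted p = 0.00173). It stood at 10.51, 10.56 and 10.64 after rhPBEF and 9.83, 10.05 and 9.63 in the combined arrays, a difference of -0.73 ± 0.12, with control arrays at 9.54, 9.30 and 9.64. The combined arrays lay between both groups and touched the control range. Btc, the EGF receptor ligand betacellulin, fell with rhPBEF alone (-0.98 against control, limma adjusted p = 0.00707). It stood at 7.32, 7.46 and 7.23 in control, 6.39, 6.25 and 6.43 after rhPBEF and 6.98, 6.72 and 6.69 in the combined arrays. The other probe set of Btc gave 0.04 between the combined group and rhPBEF. In the combined group Btc was still below control (-0.54, limma adjusted p = 0.0418). The comparison of rhPBEF with control shares the rhPBEF arrays with that of the combined group with rhPBEF, so the 2 values of a gene are not independent. Ventilation alone gave 0.46 for F3, -0.24 for Pigr and 0.48 for Btc, the same signs as ventilation added to rhPBEF. For each, the difference between the steps had a limma adjusted p of 0.998.

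The remaining higher genes of the 15 with the smallest p had differences from 0.33 to 1.03 and no overlap between groups. Gpr65, a proton-sensing receptor gene of leukocytes, went from 6.70, 7.23 and 6.90 to 8.42, 8.03 and 7.45 (1.03 ± 0.25), with 1.34 in ventilation alone. Sgms2, a sphingomyelin synthase gene, differed by 0.72 ± 0.18 and Hmgcs1, an enzyme of cholesterol synthesis, by 0.44 ± 0.11. Stc2, a secreted glycoprotein gene induced by cell stress, differed by 0.49 ± 0.12, with 0.03 in ventilation alone. Smaller differences were those of Camk2n2, an inhibitor of CaM kinase II (0.44), Cmtm3 (0.40), Gca, a calcium-binding protein gene of leukocytes (0.38), the ubiquitin ligase gene Hecw2 (0.35), the glycolytic enzyme gene Pgk2 (0.34) and Hes3 (0.33), the last 2 at levels below 6.42. Fap, a serine protease gene of activated fibroblasts, was lower, going from 6.46, 6.73 and 6.25 to 5.69, 5.90 and 5.83 (-0.68 ± 0.14) with -0.05 in ventilation alone. The mean level of Fap over the 12 arrays was also below 6.42. Among the lower genes were also Fgfr3, a fibroblast growth factor receptor gene (-0.75), the scaffold gene Grasp (-0.56), the transcription factor gene Sox13 (-0.52), Caskin2 (-0.47), N4bp3 (-0.47), the protease inhibitor gene Eppin (-0.45) and Tmc6 (-0.40).

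Chemokines that attract neutrophils were high in both groups, with no difference that stood out from the spread of the arrays. Cxcl2, one of these ligands of the receptor CXCR2, stood at 12.82, 12.69 and 12.90 after rhPBEF and 13.18, 12.66 and 12.13 in the combined arrays, far above the control arrays at 5.48, 5.33 and 5.31. The groups overlapped fully, with a difference of -0.15 ± 0.51 (95% interval -1.27 to 0.98). Ventilation alone gave 2.76, and the steps differed by -2.91 (interval -4.50 to -1.31, limma adjusted p = 0.998). Cxcl1 stood at 12.01, 12.19 and 12.35 against 12.83, 12.14 and 11.78 (0.07 ± 0.25), Cxcl3 differed by -0.19 ± 0.65 and Cxcl5 by 0.31 ± 0.60, the last of which was 0.06 without rhPBEF replicate 2 and 0.59 without combined replicate 3. Of 7 neutrophil-attracting chemokines and receptors, 3 were higher and 4 lower, with 0 at an unadjusted p below 0.05 and a median of -0.03. That median was 0.30 without combined replicate 3 and -0.14 without combined replicate 1, and the signs of Cxcl1, Cxcl2 and Cxcl3 turned with single arrays. A further 22 chemokines had a median of 0.06, from -0.16 without combined replicate 1 to 0.39 without combined replicate 3. Ccl3, a monocyte chemokine, stood at 9.97, 9.26 and 9.05 against 9.92, 9.35 and 7.37, so its difference of -0.55 ± 0.59 was 0.21 without combined replicate 3.

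Il6, the acute inflammatory cytokine gene, was higher again in the combined group. It stood at 4.63, 4.59 and 4.61 in control, 8.89, 10.45 and 8.61 after rhPBEF and 11.66, 10.32 and 11.09 in the combined arrays. Combined replicate 2 lay just below rhPBEF replicate 2, so the groups overlapped, and the difference was 1.70 ± 0.66 (SE), 3.25-fold. Lif, a cytokine of the same family, went from 7.59, 6.91 and 6.90 to 9.10, 8.09 and 7.37 (1.06 ± 0.46), with -0.01 in its other probe set. Socs3, their feedback inhibitor, differed by 0.42 ± 0.36. Of 15 genes of the IL-6 family and its feedback, 12 were higher, 2 of them at an unadjusted p below 0.05, against 2.82% of all genes, and the median was 0.15, from 0.03 without combined replicate 1 to 0.35 without combined replicate 3.

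The largest difference upwards of all genes was that of Ptx3, a soluble pattern recognition protein made by stimulated endothelium and macrophages. It stood at 7.65, 8.71 and 6.32 after rhPBEF and 10.87, 10.04 and 8.10 in the combined arrays, a difference of 2.11 ± 0.67 (SE), and its other probe set gave 0.22. Combined replicate 3 fell within the rhPBEF range. The acute phase genes Saa1 and Saa3, members of a family of related sequences, had 0.81 ± 0.97 and 0.12 ± 0.67. Of 19 Toll-like receptor and acute phase genes, 14 were higher and the median was 0.12, with -0.02 without combined replicate 1 and 0.35 without combined replicate 3. Of 16 NF-kB targets and regulators 15 were higher, with 0 at an unadjusted p below 0.05 in that direction and a median of 0.23 (-0.02 without combined replicate 1, 0.12 without combined replicate 2, 0.15 without rhPBEF replicate 3 and 0.51 without combined replicate 3). The lower member was Tnf, the tumour necrosis factor gene, at 8.20, 7.91 and 7.86 against 7.92, 7.77 and 7.26 (-0.35 ± 0.15, and -0.15 without combined replicate 3). IL-1 family genes, 17 in all, had a median of 0.12 (-0.09 to 0.36 over the arrays left out) and no unadjusted p below 0.05, and the antagonist gene Il1rn stood at 9.45, 9.67 and 8.81 against 11.19, 10.25 and 8.55. Of the colony-stimulating factors, Csf3 gave 0.28 ± 0.48 and Csf2 -0.43 ± 0.61, each of which changed sign with single arrays.

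**Figure D3:**
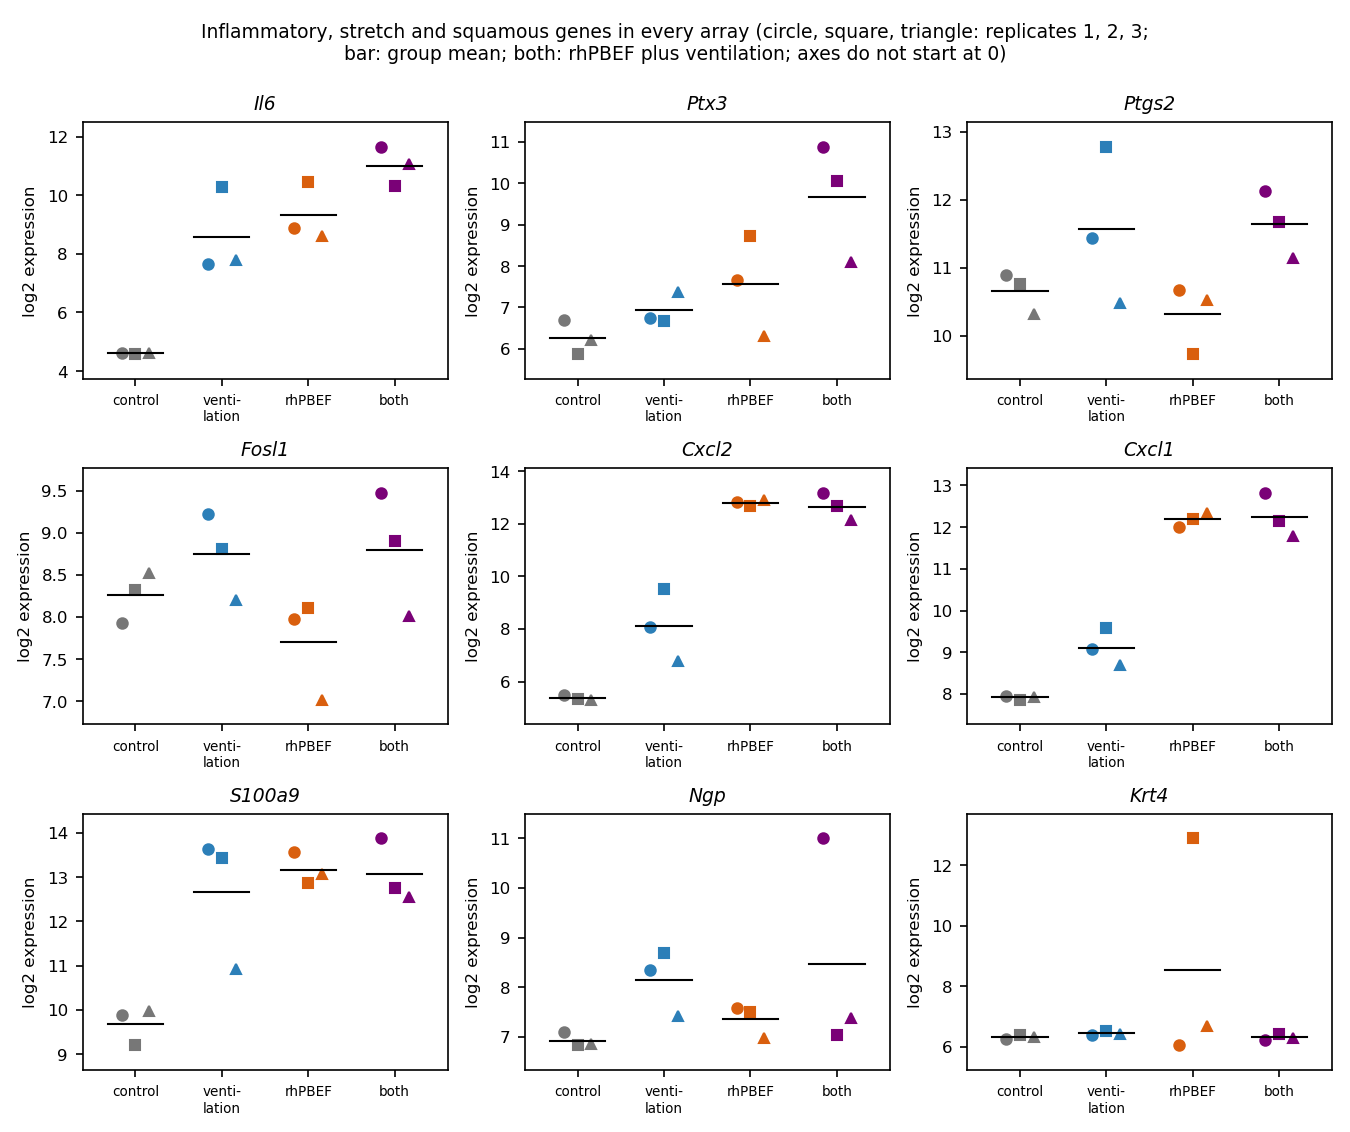
Log2 expression (y axes, which do not start at 0) of 9 inflammatory, stretch and squamous genes in each of the 12 arrays by group (x axes), with circles, squares and triangles for replicates 1, 2 and 3 and bars for group means. Cxcl1 and Cxcl2 sit as high after rhPBEF as in the combined group, Il6 and Ptx3 are highest in the combined group, Ngp is high in 1 combined array and Krt4 in 1 rhPBEF array.

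Immediate early genes, which respond within minutes of a stimulus and of which many encode transcription factors, were mostly higher. Of 32, 28 were higher and 4 lower, none passed, and 2 were higher and 2 lower at an unadjusted p below 0.05, against 2.82% and 1.46% of all genes. Of all genes 55.2% were higher. The median was 0.32, beside 0.75 in ventilation alone, and was 0.15 without combined replicate 1. In ventilation alone the list mean above control was 0.34, 1.46 and 0.41 in replicates 1 to 3, so replicate 2 stood apart. Fosl1, an AP-1 subunit gene, went from 7.98, 8.10 and 7.02 to 9.47, 8.91 and 8.01 (1.10 ± 0.39). Its groups overlapped at a single array on each side. Dusp1, a MAP kinase phosphatase gene, went from 13.38, 13.06 and 12.84 to 13.62, 13.41 and 13.68 (0.48 ± 0.18). Atf3, a stress transcription factor gene, went from 9.75, 8.95 and 9.07 to 10.89, 10.03 and 10.03 without overlap, with a standard error of 0.76 from a spread that includes ventilation replicate 2 at 13.01. Klf10 was lower, from 10.24, 10.03 and 10.45 to 9.55, 9.68 and 9.77 (-0.57 ± 0.14), as it was in ventilation alone (-0.54).

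Genes of stretch and matrix injury and ligands of the EGF receptor pointed the same way with wide errors. Ptgs2, the inducible cyclooxygenase gene, stood at 10.68, 9.74 and 10.53 after rhPBEF and 12.12, 11.66 and 11.15 in the combined arrays. No arrays overlapped, and the difference was 1.33 ± 0.48 (SE). Has1, a hyaluronan synthase gene, went from 8.40, 8.40 and 8.02 to 9.76, 8.75 and 8.97 (0.89 ± 0.40), while the protease gene Adamts4 (0.94 ± 0.67) and the protease inhibitor gene Timp1 (0.70 ± 0.52) overlapped. Adamts4 was 1.44 without rhPBEF replicate 2, 1.69 without combined replicate 3 and 0.20 without rhPBEF replicate 3. Timp1 was 1.36 without combined replicate 3 and 0.21 without rhPBEF replicate 3. Over 17 such genes 13 were higher, with a median of 0.22 that was -0.02 without rhPBEF replicate 3, 0.14 without combined replicate 1 and 0.37 without rhPBEF replicate 1. Ereg, the EGF receptor ligand epiregulin, went from 6.31, 6.53 and 5.65 to 7.86, 6.67 and 6.68 (0.91 ± 0.34). Its mean level over the 12 arrays was below 6.42. Hbegf, a further ligand gene, gave 0.26 ± 0.28 (0.42 without combined replicate 3) and the feedback inhibitor gene Errfi1 0.45 ± 0.23. Of 12 EGF receptor ligands and receptors 8 were higher, with a median of 0.22 that was 0.08 without combined replicate 1 and 0.13 without rhPBEF replicate 3.

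**Figure D4:**
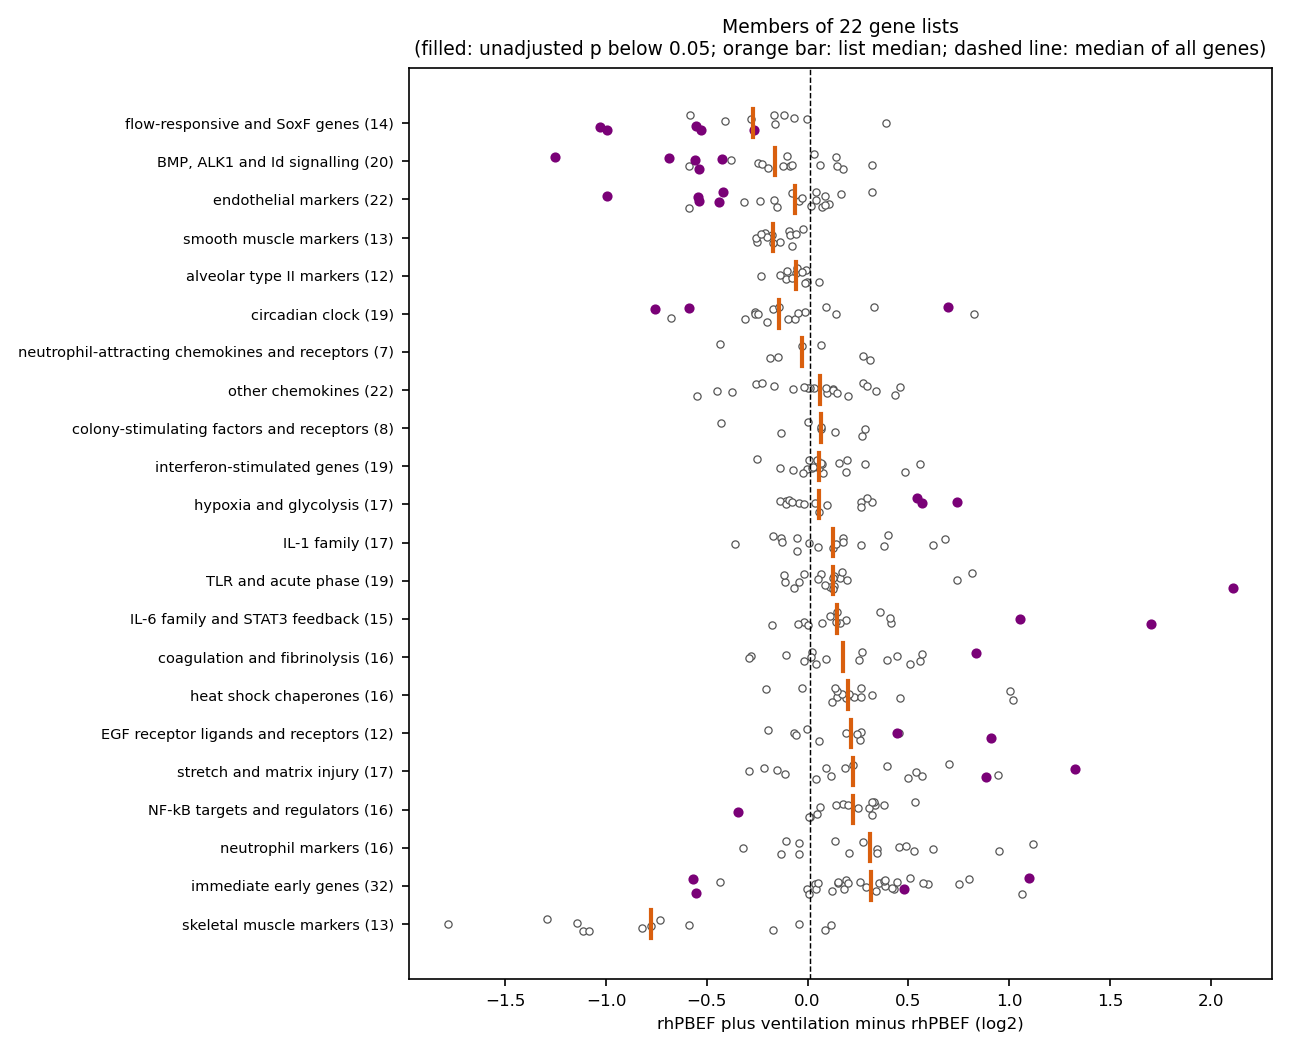
Log2 difference of the combined group from rhPBEF (x axis) for each member of 22 gene lists (y axis, with the number of genes tested). Filled points have an unadjusted p below 0.05, orange bars are list medians and the dashed line is the median of all genes, 0.01. Filled points lie to the left for the flow-responsive, BMP and endothelial lists, and the skeletal muscle list has the lowest median, -0.78, which was 0.11 without rhPBEF replicate 2.

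Hypoxia, clock and stress genes gave scattered differences. Of 17 hypoxia and glycolysis genes 3 were higher at an unadjusted p below 0.05, against 2.82% of all genes: Pfkfb3, a regulator of glycolysis (0.74 ± 0.30), the glucose transporter gene Slc2a1 (0.57 ± 0.22) and Ndrg1 (0.54 ± 0.20). In each of these, combined replicate 3 fell within the rhPBEF range, and the list median was 0.06 (0.01 to 0.12 over the arrays left out). Among 19 clock genes 14 were lower. Per3 gave -0.75 ± 0.32, though its 6 probe sets ran from -0.75 to -0.04. Nr1d1, a repressor of the clock, gave -0.59 ± 0.24 and Dbp, a clock output gene, -0.68 ± 0.36. Noct, the nocturnin gene, was higher at 0.70 ± 0.29. The largest difference of the list was a rise, that of Nfil3 (0.83 ± 0.49), without overlap and with 2.09 in ventilation alone. The list median of -0.14 ran from -0.31 without combined replicate 3 to -0.05 without combined replicate 1. Without combined replicate 3 Per3 was -1.16 and Dbp -1.08. Time of day was not given. Srxn1, a sulfiredoxin gene induced by oxidants, differed by 0.77 ± 0.32 and Hmox1, the heme oxygenase gene, by 0.83 ± 0.54 (1.31 without combined replicate 3), within 18 oxidative stress genes with a median of 0.18 (0.06 to 0.38). The heat shock genes Hspa1a and Hspa1b, whose near-identical sequences may share signal, spread more within groups than between them. Hspa1a stood at 11.57, 7.89 and 9.17 after rhPBEF and 11.87, 11.47 and 8.35 in the combined arrays (1.02 ± 1.19). Its difference was 0.19 without rhPBEF replicate 2 and 2.13 without combined replicate 3.

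Markers of other cells were read for the whole lung. Neutrophil markers, 16 in all, had a median difference of 0.31, but this was -0.15 without combined replicate 1 and 0.72 without combined replicate 3. Their mean level lay between 9.86 and 10.19 in the rhPBEF arrays and between 9.58 and 11.23 in the combined arrays, and 0 of them had an unadjusted p below 0.05. In ventilation alone their median was 1.50, with all 16 higher and 10 at an unadjusted p below 0.05, against 5.56% of all genes. Their mean above control was 2.31, 2.14 and 0.60 in ventilation replicates 1 to 3. In rhPBEF against control the median was 1.89. S100a9, an abundant neutrophil gene, stood at 13.56, 12.87 and 13.07 against 13.87, 12.76 and 12.55. The granule genes Ngp and Camp, which immature neutrophils make, were high in combined replicate 1 alone, Ngp at 11.00 against 7.03 and 7.38 in the other combined arrays. Combined replicate 1 was the highest of its group for neutrophil markers and for NF-kB targets and regulators. Whether neutrophil number bears on the inflammatory values above was not tested.

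Smooth muscle markers were lower for 13 of 13 genes with a median of -0.17, none at an unadjusted p below 0.05. Their mean relative to control was -0.58, -0.50 and 0.05 in combined replicates 1 to 3, so the median was -0.40 without combined replicate 3, -0.34 without rhPBEF replicate 3 and -0.02 without combined replicate 1. Skeletal muscle markers had the lowest median of the lists, at -0.78 with 11 of 13 lower. This rests on rhPBEF replicate 2, whose mean level of 8.81 compares with 6.02 and 6.19 in the other rhPBEF arrays and 6.20 to 6.36 in the combined arrays, and without that array the median was 0.11. Tnnc2, a fast-muscle troponin gene, shows it, at 5.46, 11.38 and 5.53 against 5.58, 5.72 and 5.70. Removal of rhPBEF replicate 2 left list medians below 0 for the flow-responsive and BMP genes, at -0.33 and -0.20.

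**Figure D5:**
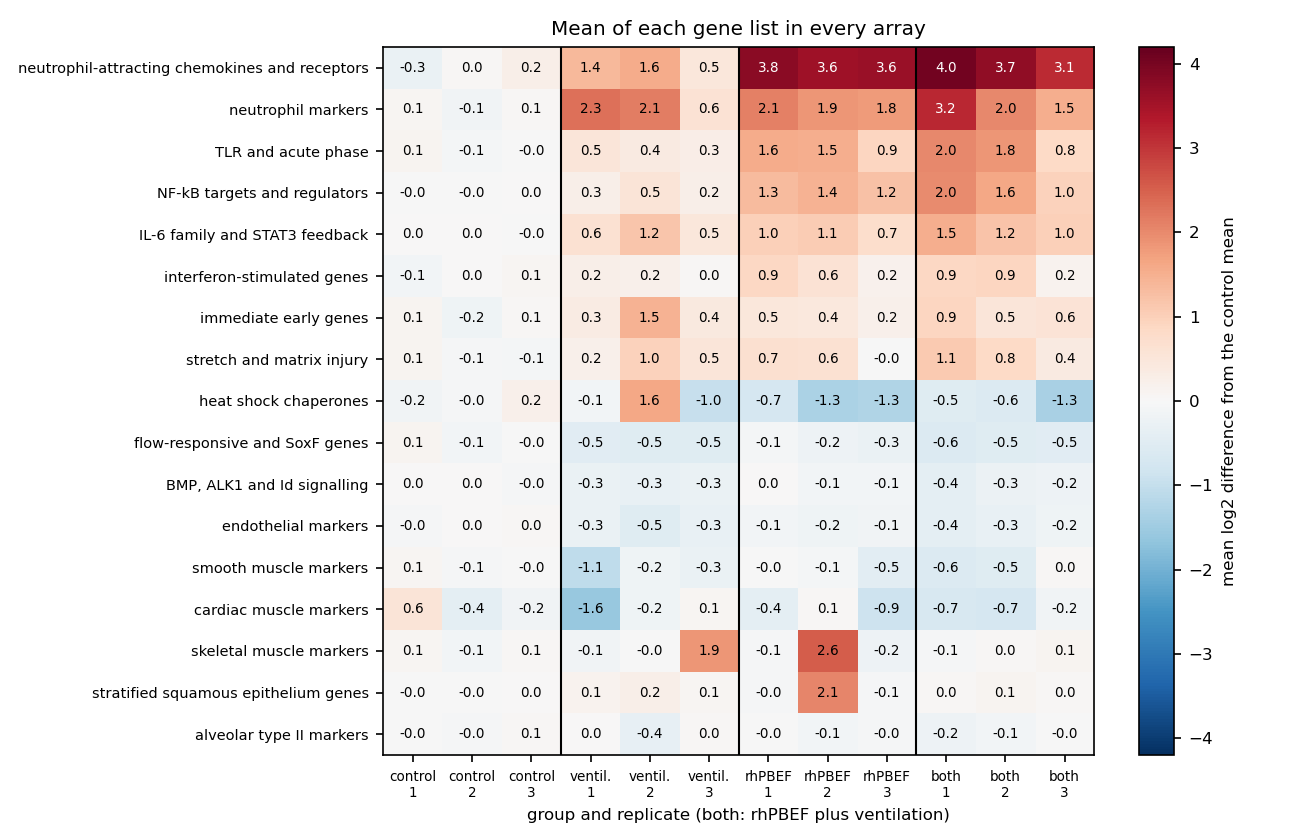
Mean log2 difference from the control mean (colour and number) of 17 gene lists (rows) in each of the 12 arrays (columns, by group and replicate). The flow-responsive list is lower in all 6 ventilated arrays than in all 6 others, the skeletal muscle list stands out in rhPBEF replicate 2 and ventilation replicate 3, and inflammatory lists in the combined group are lowest in replicate 3.

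Nampt itself, the mouse gene of PBEF, stood at 10.56, 10.66 and 10.59 after rhPBEF and 10.88, 11.11 and 10.62 in the combined arrays. Combined replicate 3 lay within the rhPBEF range, the difference was 0.27 ± 0.12 (SE), and its 3 probe sets ran from -0.02 to 0.27. Without combined replicate 2 it was 0.15. Ventilation alone gave 0.07. Of 19 NAD metabolism genes 12 were higher and 7 lower, where 55.2% of all genes were higher. In each direction 1 had an unadjusted p below 0.05, against 2.82% and 1.46% of all genes, and the median was 0.06 (0.02 to 0.11 over the arrays left out).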

How the data were processed

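The deposited table holds log2 expression values, 1 per probe set and array, which the authors had normalised. MAS5 and GCRMA are named in the submitters' processing notes, while roles, versions, background correction and genome build are not given. Without detection calls, low levels and background cannot be separated, and the number of arrays limits the precision. Groups were taken from the sample titles.

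Of 45101 probe sets 64 controls were left out. Of the other 45037, 34945 had 1 gene symbol, 932 several and 9160 none. Each gene was read from its probe set with the highest 12-array mean, with no filter on level, which gave 18193 genes, 9010 of them with several probe sets. Symbols were compared with RefSeq through Entrez identifiers, which changed 0. A model of 4 group means was fitted to 12 arrays with limma 3.58.1 in R 4.3.3 (8 residual and 3.14 prior degrees of freedom, Benjamini-Hochberg over all genes, threshold 0.05). An exact two-sided test of 3 against 3 arrays cannot go below 0.1. The fit was tested on simulated data.

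Up to 15 genes were named in each direction, by smallest p among those whose arrays did not overlap where fewer passed, with the 5 smallest p for the difference between steps, Nampt and up to 4 members of a described list with the largest differences, leaving out uncharacterised transcripts. Other members of a list are named where their unadjusted p was below 0.05 or as a contrast, and were chosen after their values were seen, as were Saa3, Hbegf, Cxcl1, Cxcl2, Socs3, S100a9, Pecam1, Acaa1a and Krt4. The groups' members and the 38 gene lists were chosen with earlier results of these data known, and 5 more lists after values were seen. Lists are described by counts and medians. Promoter windows are RefSeq sequences of 32851 gene starts. Figures used Python 3.11.15 and matplotlib 3.10.9. Alternatives changed the filter, scaling, variance model, weights, probe sets, replicate block and arrays.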

Additional observations from a re-analysis of the deposited data

Results flagged for a closer look

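In 5 genes and 1 list all arrays of one ventilation step lay on one side of their baseline mean and those of the other step on the opposite side. Tnf differed by -0.35 between the combined group and rhPBEF and by 0.15 between ventilation and control, and the difference of the steps was -0.50 with a limma adjusted p of 0.998. Fgg gave -0.051 and 0.95, and the smooth muscle channel subunit gene Kcnmb1 gave 0.14 and -0.42, both with an adjusted p of 0.998 by limma for the difference. The other probe set of Kcnmb1 gave -0.014 in this comparison, and the mean level of the gene over the 12 arrays was below 6.42. The fast-muscle troponin gene Tnni2 gave -1.29 and 1.09, but was 0.10 in this comparison without rhPBEF replicate 2, where it stood at 10.60 against 6.46 and 6.40 in the other rhPBEF arrays. Krt4, a keratin of stratified epithelium, gave -2.21 and 0.12, and was -0.042 in this comparison without the same array. The mean of 26 stratified squamous epithelium genes gave -0.59 and 0.16, and for that mean the difference between the steps was not tested.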

How the results depend on the processing

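The count of 1 gene for the combined group against rhPBEF was also 1 with a filter on level, centred array medians, quantile normalisation or a variance trend with robust hyperparameters. It was 2 with the mean of all probe sets of a gene (Acaa1b and Eng) and 249 with array weights, which gave combined replicate 2 a weight of 10.3. It was 0 with the replicate block, 0 in the 6 arrays alone, 0 without both arrays rich in skeletal muscle genes and 0 over all non-control probe sets. Leaving out 1 array gave 0 to 3 genes, with 3 without combined replicate 3 (Acaa1b, Ackr1 and Galnt3), 2 without ventilation replicate 2 (Acaa1b and Trim15), and Acaa1b lost without every array other than ventilation replicates 1 and 2 and combined replicate 3. At an unadjusted p below 0.05 the count was 778, 884 with the replicate block and 2008 without combined replicate 3. Same-numbered arrays of the 2 groups deviated together with correlations of 0.27, -0.03 and 0.46. In Toll-like receptor and acute phase genes replicate 3 was the lowest array of each group, at 0.89 above control after rhPBEF and 0.84 in the combined group. The titles give only a number, so the main fit used no pairing. Whether same-numbered arrays share a source was not tested. Under the block the adjusted p of Acaa1b was 0.0699 by limma. For the difference between the steps the count of 0 became 2 without both arrays rich in skeletal muscle genes (Cd300lb and Csf3r). It was 0 to 4 with 1 array left out, with 4 without ventilation replicate 3 (Cd300ld, Csf3r, H2-Q10 and S100a9). Ventilation replicate 3 was the lowest of its group in neutrophil markers. The causes of these changes were not tested.

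Of 111 genes followed, 96 kept their direction in every setting run and 15 did not. There were 21 alternatives, and 20 for the 8 genes that the filter on level removed, which were Krt17, Hes3, Pgk2, Fap, Kcnmb1, Ereg, Camp and Tnnc2. Without 1 of the 6 arrays of the comparison, 49 moved by over 1.5 times or turned, 35 of them without combined replicate 1. With 1 array left out, differences ran from -0.22 (without combined replicate 1) to 0.30 (without combined replicate 3) for Cxcl1, and between the same 2 settings from -0.41 to 0.12 for Cxcl2, -0.72 to 0.76 for Cxcl3, -1.07 to 0.21 for Ccl3, -0.95 to 0.46 for Csf2 and -0.51 to 0.15 for S100a9. They ran from -0.22 to 0.75 for Csf3, from -0.14 to 1.84 for Ngp and from -0.079 to 0.13 for Traf1, each lowest without combined replicate 1. They ran from -0.11 to 2.12 for Saa1 and -0.39 to 1.03 for Saa3, lowest without rhPBEF replicate 3, and from -0.053 to 0.018 for Acaa1a. Highest without rhPBEF replicate 2 were Tnnc2 (-2.78 to 0.18), Tnni2 (-2.00 to 0.10) and Fgg (-0.16 to 0.12). Without both arrays rich in muscle genes Tnnc2 was 0.18, Tnni2 0.10, Fgg 0.12, Traf1 -0.062 and Acaa1a 0.014. With array weights Cxcl3 was 0.50, Csf2 0.15, Ngp -0.11, Traf1 -0.014 and Acaa1a 0.039.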

Other observations

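Lipid genes, in lists drawn up after values were seen, stood on both sides. Of 20 genes of cholesterol synthesis and uptake 17 were higher in the combined group, 7 with an unadjusted p below 0.05, against 2.82% of all genes, and none passed. The median was 0.20, beside 0.16 in ventilation alone, and 0.11 without combined replicate 3. Pmvk, phosphomevalonate kinase, stood at 9.77, 10.60 and 10.07 after rhPBEF and 11.18, 10.80 and 10.52 in the combined arrays (0.69 ± 0.21, SE), with overlapping groups. Cyp51, the lanosterol demethylase gene, went from 8.43, 8.46 and 8.20 to 8.99, 8.99 and 8.73 (0.54 ± 0.16), and Idi1, isopentenyl diphosphate isomerase, from 10.21, 10.07 and 10.04 to 10.60, 10.70 and 10.40 (0.46 ± 0.13), both without overlap. Other probe sets of Cyp51 gave as little as 0.17. Fdft1, squalene synthase, differed by 0.35 ± 0.12, with 0.04 in another of its probe sets.

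Of 21 genes of peroxisomal and mitochondrial fatty acid oxidation 18 were lower, with a median of -0.15 (-0.17 to -0.11 with any of the 6 arrays left out). The list was drawn up because Acaa1b had passed, so that gene is no support for it. Acot1, a cytosolic acyl-CoA thioesterase gene, went from 9.32, 9.19 and 9.45 to 8.03, 8.75 and 8.66 (-0.84 ± 0.23), and Cpt1a, the carnitine transferase gene that admits fatty acids to mitochondria, from 11.35, 11.14 and 11.29 to 10.37, 10.68 and 10.94 (-0.60 ± 0.21), with -0.24 in another probe set. Neither gene overlapped between groups. Of 22 genes of the integrated stress response 18 were higher, 4 of them at an unadjusted p below 0.05, against 2.82% of all genes, and the median was 0.16, from 0.10 without combined replicate 1 to 0.35 without combined replicate 3 and 0.29 without rhPBEF replicate 1. Slc7a5, an amino acid transporter gene, went from 8.89, 8.68 and 8.66 to 9.63, 9.47 and 8.87 (0.58 ± 0.19), and the stress sensor gene Sesn2 from 8.55, 8.63 and 8.59 to 9.02, 8.97 and 8.90 (0.37 ± 0.16). In ventilation alone they gave 0.01 and 0.16.

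Genes of stratified squamous epithelium were high in 1 array of the comparison. The mean of 26 such genes lay 2.06 above the control mean in rhPBEF replicate 2 and between -0.06 and 0.24 in the other 11 arrays. Krt4 stood at 6.05, 12.88 and 6.68 after rhPBEF and 6.25, 6.41 and 6.31 in the combined arrays. The list median of -0.34 was 0.11 without that array. Ventilation replicate 3, the other array high in skeletal muscle genes, had a squamous mean of 0.10.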
